A study of Mus musculus with 8 samples.

Results

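The annexins described here are 9 genes, Anxa1 to Anxa8 and Anxa11, taken by symbol from the 43346 gene identifiers counted in mouse notochord-derived cells (NDCs). All 9 were found, each under 1 Ensembl identifier, and all were among the 15467 genes that passed the filter on low counts. RNA was sequenced from 4 litters at E12.5 (NDP10.2, NPD3, NPD4 and NPD9.2) and 4 at P0 (NPD26, NPD27, NPD28, NPD30), with the animals of a litter pooled, so a litter is the replicate. Every animal at both stages carried Shh-cre;ROSA:YFP, in which Cre is driven by Shh and turns on YFP in Shh-expressing cells and in all their descendants, and no group was treated. At E12.5 the intact notochord was dissected and frozen in TRIzol, whereas at P0 cells of the nucleus pulposus (NP) were shaken out of lumbar and thoracic discs and sorted for YFP. Stage and method of isolation therefore cannot be told apart.

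Annexins are cytosolic proteins that bind, in the presence of calcium, to membranes that carry acidic phospholipids such as phosphatidylserine. They share a core of repeated calcium-binding domains and differ in their amino-terminal tails, through which several of them bind S100 proteins or other partners. They are known for roles in membrane repair, vesicle traffic and the cytoskeleton, for the control of inflammation by extracellular annexin A1, and in cartilage for the presence of annexins A2, A5 and A6 in the vesicles that start mineralization.

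Reads counted on genes numbered 4442775 to 7180221 per litter at E12.5 and 6371842 to 8904050 at P0. Abundance is given in CPM, the count of a gene scaled to the library, on library sizes scaled by the TMM method, and 3 counts, the smallest signal taken as seen, equalled 0.337 to 0.675 CPM. That floor covers counting error only. The notochord label was checked with 8 marker genes, whose summed abundance was 985 to 3326 CPM at E12.5 against 1014 to 4082 CPM at P0. T, the notochord transcription factor brachyury, was between 242 and 942 CPM at E12.5 and between 574 and 2323 CPM at P0, whereas Noto was at or under the 3-count floor in every litter. Of the 7 markers tested, Krt19 was called higher at P0 and 2 were called lower, Shh (at E12.5 420 to 1348 CPM and at P0 0.157 to 11.8 CPM, log2 fold change -7.14, adjusted p = 0.000742) and Foxa1 (-2.23, adjusted p = 0.00682). Of all genes tested, 16.0% were called higher at P0 and 12.0% lower. Markers of blood cells and of other tissues were also present. Primitive erythroid globins summed to at least 8120 CPM in each E12.5 litter, and at P0 neutrophil markers summed to 857 to 7775 CPM and macrophage markers to 61.4 to 5192 CPM, although those cells had been sorted for YFP. Sclerotome markers summed to 161 to 243 CPM at E12.5 and 13.2 to 28.3 CPM at P0, and all 7 were called lower. Skeletal muscle markers summed to 191 to 1025 CPM at E12.5 and 19.4 to 113.5 CPM at P0, with 5 of 6 called lower. Neural markers summed to 82.2 to 1583 CPM at E12.5, highest in NPD4, and 300 to 822 CPM at P0. The part of these tissues in the values of the members was not tested. In bulk RNA, fewer cells of a type and less RNA per cell cannot be told apart.

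The promoters of the members that changed most and of the most abundant members are shown as the sequence context of the values that follow. They are taken from RefSeq on GRCm38.p6, which lists a start site for 7 of the 9 members and none for Anxa3 and Anxa6. Each is printed 5′ to 3′ on the gene's strand and ends at the base before the RefSeq start. Capitals mark matches, on either strand, to the TATA box TATAAA, the CCAAT box CCAAT, the GC box GGGCGG or the AP-1 motif TGANTCA.
Anxa1 (chr19:20390672-20390791, minus strand): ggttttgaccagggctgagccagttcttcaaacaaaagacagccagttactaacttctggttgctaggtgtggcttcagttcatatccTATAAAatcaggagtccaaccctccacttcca
Anxa11 (chr14:25842035-25842154, plus strand): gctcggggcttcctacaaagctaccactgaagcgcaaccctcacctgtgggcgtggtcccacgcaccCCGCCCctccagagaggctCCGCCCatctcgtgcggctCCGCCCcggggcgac
Anxa8 (chr14:34085859-34085978, plus strand): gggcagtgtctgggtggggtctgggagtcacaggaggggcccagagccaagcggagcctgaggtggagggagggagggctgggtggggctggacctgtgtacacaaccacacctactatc
Anxa4 (chr6:86793585-86793704, minus strand): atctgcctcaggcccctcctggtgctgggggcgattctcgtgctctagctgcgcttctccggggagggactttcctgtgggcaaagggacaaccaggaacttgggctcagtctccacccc
Anxa2 (chr9:69453563-69453682, plus strand): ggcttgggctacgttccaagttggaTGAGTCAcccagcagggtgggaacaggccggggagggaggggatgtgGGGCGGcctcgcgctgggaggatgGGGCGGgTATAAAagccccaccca
Anxa5 (chr3:36475888-36476007, minus strand): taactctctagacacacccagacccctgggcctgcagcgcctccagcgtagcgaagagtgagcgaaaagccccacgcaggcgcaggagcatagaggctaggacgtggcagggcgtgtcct
Within the 250 bases before the start, Anxa1 held a TATA box at -32 to -27 and only 2 CpG dinucleotides, and Anxa8 held none of these motifs and 4 CpG. Anxa11 held 3 GC boxes and 17 CpG. Anxa4, at the upstream of its 2 RefSeq starts, and Anxa5 held no match and 13 CpG each, while the downstream start of Anxa4, not printed, had no match and 2 CpG, and the Anxa2 window held a TATA box, 3 GC boxes, an AP-1 match at -95 to -89 and 9 CpG. Over 32851 RefSeq promoters of that length, 12.4% held the TATA box letters, 33.8% CCAAT, 32.7% the GC box and 6.75% the AP-1 letters, and the median was 6 CpG. None of these motifs was held by all of the rising members shown, and a match is a description of letters and not a binding site.

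Of the 9 annexins, 6 had significantly higher mRNA abundance at P0, Anxa1, Anxa3, Anxa4, Anxa7, Anxa8 and Anxa11, and none was significantly lower. Anxa2, Anxa5 and Anxa6, the most abundant members per kb of exon at E12.5, did not pass the test. Calls rest on edgeR's quasi-likelihood test, at an adjusted p under 0.05 with the adjustment made over all genes tested. Across all 15467 genes, 16.0% were called higher at P0, 12.0% lower and 27.9% in either direction. In the same 6 members every P0 litter lay above every E12.5 litter, a separation that 15.5% of all genes showed. The median log2 fold change, always P0 over E12.5, was 1.75 over the members and 0.04 over all genes. The summed abundance of the 9 was 845 ± 207 CPM at E12.5 against 1827 ± 261 CPM at P0 (mean ± SD, n = 4 litters). Of 8 tested genes of cell dissociation stress, 4 were called higher at P0, Fos, Fosb, Junb and Hspa1b, and none lower. The list had a summed abundance of 155 to 426 CPM at E12.5 against 488 to 1001 CPM at P0, and their part in the changes of the members was not tested.

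**Figure D1:**
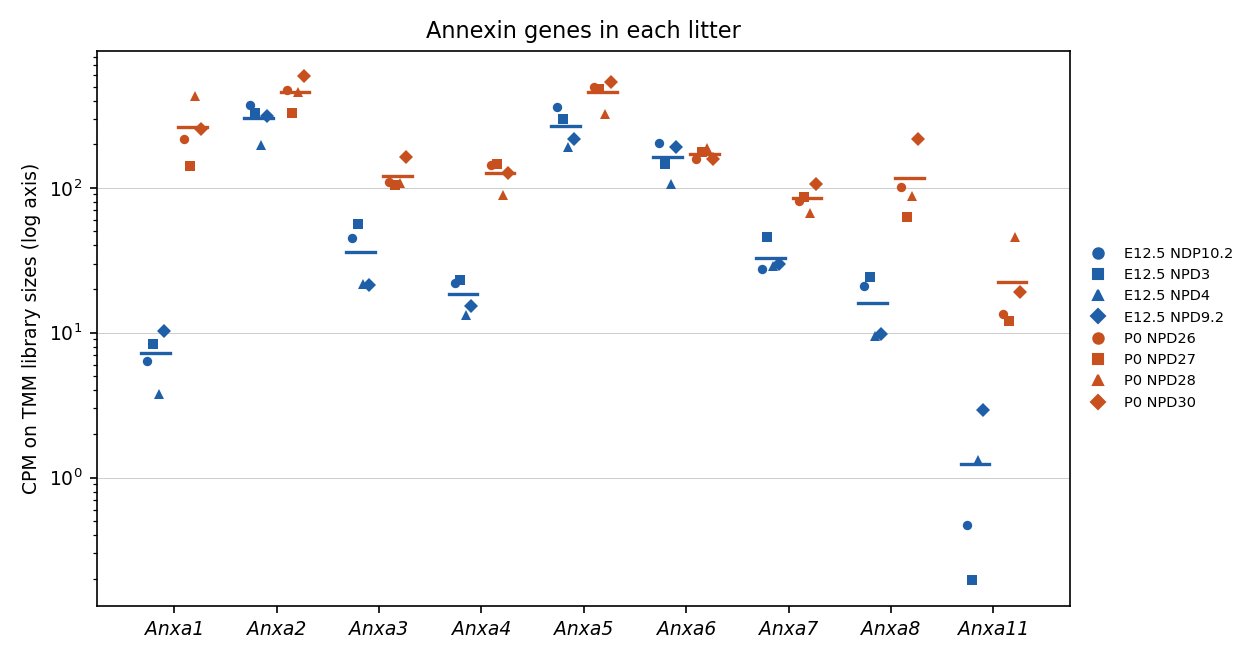
Abundance of each annexin in CPM (vertical axis, log scale) in the 4 E12.5 (blue) and 4 P0 (orange) litters, with a symbol for each litter and a line at the mean of each stage. The stages are separated for Anxa1, Anxa3, Anxa4, Anxa7, Anxa8 and Anxa11 and overlap for Anxa2, Anxa5 and Anxa6.

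Anxa1 (ENSMUSG00000024659.10, chr19:20373428-20390944, minus strand of GRCm38) encodes annexin A1, a glucocorticoid-regulated protein that acts on leukocytes through formyl peptide receptors. Its abundance was 6.37, 8.39, 3.75 and 10.3 CPM in the E12.5 litters NDP10.2, NPD3, NPD4 and NPD9.2, and at P0 217 CPM in NPD26, 141 in NPD27, 429.8 in NPD28 and 256 in NPD30. Values of the other members follow the same order of litters. Every P0 litter was at least an order of magnitude above every E12.5 litter. The mean rose 36.2-fold, from 7.21 ± 2.82 to 261 ± 122 CPM, with a log2 fold change of 5.19 (SE 0.45, adjusted p = 7.91e-05). This was the largest increase among the members, and 287 of the tested genes, 1.86%, had a log2 fold change as large or larger. Anxa1 was highest in NPD28, the P0 litter in which neutrophil markers were also highest, at 7775 CPM against 857 to 1111 CPM in the other P0 litters. Without NPD28 the log2 fold change of Anxa1 was 4.85, past the threshold. With NPD30 as the sole P0 litter it was 5.22, a value for which all the spread comes from the E12.5 litters, as in every such value given for NPD30, so that it is no replicated test. In NPD30 macrophage markers summed to 61.4 CPM, within the 59.1 to 116 CPM of the E12.5 litters, whereas neutrophil markers, at 1111 CPM, were above the 5.19 to 17.8 CPM of E12.5. The part of neutrophil RNA in the rise of Anxa1 was not tested.

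The partners and regulators of annexin A1 were read from the same fit. S100a11, whose product binds the tail of annexin A1, had 58.1 to 149 CPM at E12.5 against 105 to 284 CPM at P0 (log2 fold change 0.82, SE 0.37, adjusted p = 0.119), and its stages overlapped. The log2 ratio of Anxa1 to S100a11 per exon length was -6.37 ± 0.40 at E12.5 and -2.05 ± 0.13 at P0. The difference of 4.32 gave p = 0.0286 in a two-sided exact permutation test, the smallest value that 4 against 4 litters allow. Adjusted over the 2 ratios tested, this permutation test gave 0.0571. With the ratio of Anxa2 to S100a10 short of that smallest value, no adjusted value under 0.05 was possible here. The test could therefore not decide on this ratio. Every P0 litter (-2.21 to -1.91) lay above every E12.5 litter (-6.83 to -5.87). The ratio is not independent of the rise of Anxa1 given above. Of the formyl peptide receptors, Fpr1 and Fpr2 were both called higher at P0 and Fpr3 was too low to test. Fpr1 had 2 counts in all over the E12.5 litters and 8.33, 18.03, 87.3 and 9.70 CPM across the P0 litters (adjusted p = 0.00108). Fpr2 was at 0 in 3 E12.5 litters, and reached 24.5, 27.4, 122 and 15.3 CPM at P0 (adjusted p = 0.00658). Both receptors, which are made by myeloid cells, were highest in NPD28, as Anxa1 was. Against 16.0% of all genes called higher and 12.0% lower, 4 of 7 glucocorticoid response genes were called higher and none lower. These were Nr3c1, the glucocorticoid receptor (log2 fold change 2.11, adjusted p = 0.0036), Dusp1 (2.46, adjusted p = 0.00138), Sgk1 (1.90, adjusted p = 0.0144) and Per1 (0.83, adjusted p = 0.0497), while Tsc22d3, Fkbp5 and Zbtb16 did not pass.

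Anxa2 (ENSMUSG00000032231.10, chr9:69453620-69491795, plus strand) encodes annexin A2, which with S100a10 forms a membrane complex that binds plasminogen and its activator. Per kb of exon it was next to Anxa5 at both stages, and its abundance was 373, 328, 198 and 313 CPM in the E12.5 litters and 470.5, 328, 457 and 592 CPM in those of P0. The lowest P0 litter, NPD27, was level with the E12.5 litter NPD3. The log2 fold change was 0.61 (SE 0.28, adjusted p = 0.131), with a 95% interval of -0.01 to 1.23. S100a10 had 82.2 to 136 CPM at E12.5 against 100.5 to 194 CPM at P0, and its log2 fold change of 0.34 (SE 0.27, adjusted p = 0.393) was not past the threshold either. The log2 ratio of Anxa2 to S100a10 per exon length was -0.28 ± 0.60 at E12.5 and 0.02 ± 0.41 at P0, a difference of 0.30 (p = 0.457, two-sided exact permutation test). Exons of Anxa2 overlap those of the antisense gene Gm16144 over 98 bases. Gm16144 received 26 counts over the E12.5 litters and 30 over those of P0, against 6173 and 13049 for Anxa2, and without a stated strand setting the reads of their overlap cannot be told apart.

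The counts of calls in this paragraph stand beside 16.0% of all genes called higher, 12.0% lower and 27.9% in either direction. Of the 4 genes of annexin-binding S100 proteins, S100a6 and S100a4 were called higher. S100a6 rose from a range of 8.46 to 47.7 CPM to one of 103 to 243 CPM (log2 fold change 2.54, adjusted p = 0.0038). S100a4 was at or under 1.23 CPM at E12.5 and between 2.27 and 13.7 CPM at P0 (log2 fold change 3.78, SE 0.86, adjusted p = 0.00755). Its E12.5 counts were 0, 3, 2 and 5, at or under the 3-count floor in NDP10.2, NPD3 and NPD4. A filter of at least 10 counts in every sample therefore left S100a4 out of the test. Its log2 fold change was 4.49 without NPD9.2 and only 2.19 with NPD30 as the sole P0 litter, so its size depended on the litters. In the plasminogen system, 4 of 7 genes were tested. Plaur, the urokinase receptor, rose by 2.82 on the log2 scale (adjusted p = 0.00487), with its highest value, 57.7 CPM, again in NPD28. Plat, the tissue plasminogen activator that the annexin A2 complex binds, fell by 1.43 (adjusted p = 0.0159), from between 13.0 and 26.1 CPM to between 3.65 and 8.95 CPM. Of 7 further partners of annexins, 1 was called, a share not above that of all genes. It was Prkca, a calcium-dependent protein kinase, with 13.7 to 20.5 CPM at E12.5 against 89.6 to 111 CPM at P0 (log2 fold change 2.61, adjusted p = 7.51e-05). For Ahnak, a giant scaffold of the annexin A2 complex, the value was 0.14 (adjusted p = 0.855).

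Anxa5 (ENSMUSG00000027712.9, chr3:36448923-36475894, minus strand) encodes annexin A5, the phosphatidylserine-binding protein used to stain dying cells and a component of cartilage matrix vesicles. Its abundance was 363, 299, 193 and 217 CPM at E12.5 against 497, 485, 325 and 537 CPM at P0. NPD28 was below the highest E12.5 litter, NDP10.2, and the other P0 litters were above all E12.5 litters. The log2 fold change was 0.78 (SE 0.28, adjusted p = 0.0602), with an unadjusted 95% interval of 0.16 to 1.41. The call depended on the litters and on the test. Anxa5 passed without NPD28, at 0.93 (adjusted p = 0.0367), and passed with all litters in DESeq2's Wald test (adjusted p = 0.0322) and limma-voom (adjusted p = 0.0455). Of the 8 fits with a litter left out, that without NPD28 was the only 1 in which it passed. The highest adjusted p among these fits was 0.178, without NPD9.2. Upper quartile normalization gave 0.65 (adjusted p = 0.128). Anxa6 (ENSMUSG00000018340.9, chr11:54979108-55033445, minus strand) encodes the longest annexin, with a duplicated core. It had 205, 147, 107 and 191 CPM at E12.5 against 158, 176, 187 and 158 CPM at P0, and all 4 P0 litters lay inside the E12.5 range. Its log2 fold change was 0.07 (SE 0.24, adjusted p = 0.869), with a 95% interval of -0.47 to 0.61, and upper quartile normalization gave -0.08.

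Genes of the membrane and mineral processes in which these annexins take part were counted in the same fit, in which 27.9% of all genes were called in either direction. Among 7 tested genes of phosphatidylserine exposure and flipping, 2 were called higher and none lower. This share was near the 27.9% of all genes called in either direction, of which 16.0% of all genes were called higher. The 2 were Ano6, the calcium-activated scramblase (log2 fold change 0.96, adjusted p = 0.0082), and Tmem30a, the flippase subunit (1.14, adjusted p = 0.0132). Among 10 genes of phosphatidylserine recognition, 6 were called higher and 1 lower. Of the 6, Mertk, Timd4, Stab1 and Stab2, which are engulfment receptors, were in NPD30 at 10.6, 0, 3.03 and 3.18 CPM, within or below their E12.5 ranges, and higher in the other P0 litters (adjusted p from 0.0131 to 0.0262). Gas6, the bridging ligand of Mertk, was at 7.88 CPM in NPD30 and 40.4 to 99.5 CPM in the other P0 litters (log2 fold change 3.80, adjusted p = 0.00561), and Pros1, another bridging ligand, had 0.91 (adjusted p = 0.0497). Adgrb1, an engulfment receptor, fell by 1.87 (adjusted p = 0.0121). Macrophage markers summed to 61.4 CPM in NPD30 and to between 1678 and 5192 CPM in the other P0 litters. The part of macrophages in the values of the recognition genes was not tested. Among 6 tested genes of matrix vesicle mineralization, Alpl, the tissue-nonspecific alkaline phosphatase (4.31, adjusted p = 0.000352), Ank, a pyrophosphate transporter (1.53, adjusted p = 0.00289), and Spp1, osteopontin (2.66, adjusted p = 0.00556), were called higher, and the phosphate transporter Slc20a2 lower (-1.17, adjusted p = 0.0114). Alpl is also an osteoblast marker, and 4 of the 5 osteoblast markers tested were called higher. Besides Alpl these were Ibsp, at most 0.390 CPM at E12.5 and from 245 to 526 CPM at P0, Sp7 (log2 fold change 4.31, adjusted p = 4.18e-05) and Dmp1, at 0 in all E12.5 litters and at 7.71 to 16.3 CPM at P0. The osteoclast markers tested, Acp5 and Ctsk, were both called higher. The part of bone cells in the values of the mineralization genes was not tested.

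Anxa7 (ENSMUSG00000021814.12, chr14:20455260-20480133, minus strand) and Anxa11 (ENSMUSG00000021866.11, chr14:25842156-25886804, plus strand) encode the annexins with long, glycine- and proline-rich tails, which bind the calcium sensors sorcin and ALG-2. Anxa7 had 27.6, 45.9, 28.6 and 29.7 CPM at E12.5 against 81.0, 86.5, 66.6 and 107 CPM at P0, so the highest E12.5 litter, NPD3, was still below the lowest P0 litter, NPD28. Its log2 fold change was 1.37 (SE 0.25, adjusted p = 0.00276). With the E12.5 litters NDP10.2 and NPD9.2 left out it was 1.16 (adjusted p = 0.0514), and the call was lost. Anxa11 had 0.472, 0.195, 1.33 and 2.95 CPM at E12.5, which are 2, 1, 11 and 12 counts, and 13.4, 12.1, 45.4 and 19.1 CPM at P0. It was therefore at or below the 3-count floor in 2 E12.5 litters and was clearly detected in every P0 litter. The log2 fold change was 4.19 (SE 0.72, adjusted p = 0.00209), and it was 3.60 without NPD28, its highest P0 litter, and 4.87 without NPD9.2, its highest E12.5 litter, past the threshold in both. Of the 100-base stretches of Anxa11 transcripts, 13.7% also occur in other genes (Anxa11os, Gm2260 or Gm2274), and their effect on its counts was not tested. Gm2260 and Gm2274 received 0 counts at both stages. Exons of Anxa11 overlap those of Anxa11os over 113 bases, and without a stated strand setting the reads of this overlap cannot be told apart. The antisense Anxa11os received 0 counts at E12.5 and 61 at P0. The partners Pdcd6, which encodes ALG-2, and Sri, which encodes sorcin, did not pass, at 0.50 for Pdcd6 (adjusted p = 0.143) and 0.46 for Sri (adjusted p = 0.131).

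Anxa4 (ENSMUSG00000029994.13, chr6:86736840-86793584, minus strand), Anxa8 (ENSMUSG00000021950.11, chr14:34085981-34100571, plus strand) and Anxa3 (ENSMUSG00000029484.8, chr5:96793339-96845966, plus strand) encode annexins known from epithelia, late endosomes and granulocytes, respectively. Anxa4 had 22.2, 23.2, 13.2 and 15.2 CPM at E12.5 against 145, 145, 89.8 and 127 CPM at P0. The lowest P0 litter was far above the highest of E12.5, and the log2 fold change was 2.78 (SE 0.28, adjusted p = 0.000147). Anxa8 had 89, 124, 79 and 40 counts at E12.5, or 9.55 to 24.2 CPM, against 102, 62.9, 87.2 and 217 CPM at P0 (log2 fold change 2.86, SE 0.46, adjusted p = 0.00163). Its highest litter was NPD30, the P0 litter with the highest notochord markers (4082 CPM) and the lowest macrophage markers. Anxa3 had 44.8, 56.2, 21.6 and 21.4 CPM at E12.5 against 110.4, 105, 107 and 163 CPM at P0 (log2 fold change 1.75, SE 0.35, adjusted p = 0.00391). It too was highest in NPD30, while the other P0 litters lay close together. Without NPD30 the log2 fold changes were 2.75 for Anxa4, 2.35 for Anxa8 and 1.54 for Anxa3, all past the threshold, and with NPD30 as the sole P0 litter they were 2.83, 3.80 and 2.22. Of 10 tested genes of membrane repair, 3 were called higher and none lower. Among all genes 27.9% were called in either direction, a share near that of the list, and 16.0% were called higher. The 3 were Capn1 (2.02, adjusted p = 0.00767), a calpain, and Chmp4b (1.27, adjusted p = 0.00264) and Pdcd6ip (1.17, adjusted p = 0.00373), which act in ESCRT-mediated membrane scission.

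**Figure D2:**
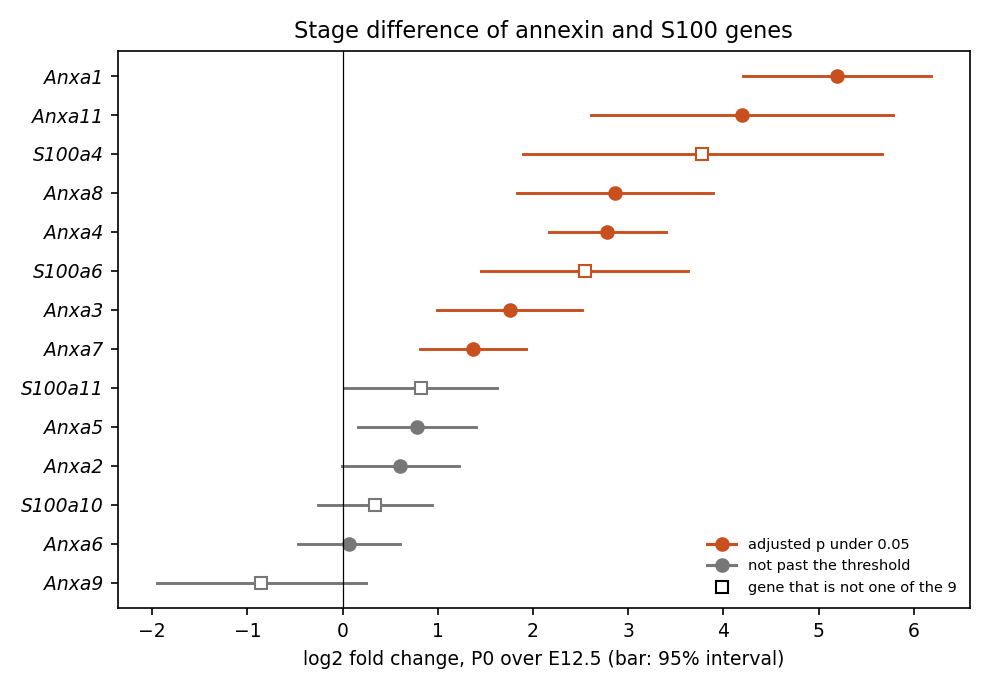
Log2 fold changes (horizontal axis, P0 over E12.5) of the 9 annexins (filled circles), Anxa9 and 4 S100 genes (open squares), with 95% intervals as bars and orange for an adjusted p under 0.05. Among the genes plotted Anxa1 and Anxa11 had the largest values, at 5.19 and 4.19, and the intervals of Anxa2, Anxa6, Anxa9 and S100a10 include 0.

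Anxa9, Anxa10 and Anxa13, the annexins outside the 9, were low. Anxa9 had 3.12 to 6.13 CPM at E12.5 and, at P0, 1.77 to 4.33 CPM (log2 fold change -0.85, adjusted p = 0.234). Anxa10 and Anxa13 had no counts at E12.5 and were seen in a single P0 litter each, at 0.577 and 1.10 CPM.

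To compare levels between genes, CPM was divided by the length of the union of exons. Per kb, Anxa5 was the most abundant annexin at both stages, at 151 ± 44.0 CPM per kb at E12.5 and 260 ± 52.5 at P0, and at each stage its litters did not overlap, on this length, those of Anxa2, which came next with 81.2 ± 19.9 and 124 ± 28.9. At E12.5 Anxa6 followed Anxa2, with overlapping litters, and a gap separated both from the other members, of which Anxa3 had 9.89 ± 4.77 and Anxa1 2.48 ± 0.97 CPM per kb. Anxa11 was lowest, at 0.299. At P0 the order below Anxa5 ran Anxa2, Anxa1, Anxa8 and Anxa6, and each of these overlapped its neighbour. Anxa1, in place 8 of 9 at E12.5, was in place 3 at P0 with 89.7 ± 41.9 CPM per kb. Anxa3 and Anxa4 overlapped each other, and Anxa7 and Anxa11 were lowest without overlap.

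The share of Anxa5 in the summed annexin level per kb was 47.3% ± 4.00 at E12.5 and 38.8% ± 7.72 at P0. The share of Anxa2 was 25.6% ± 1.95 and 18.2% ± 2.06, and that of Anxa6 17.6% ± 3.30 and 8.80% ± 1.75. Anxa1 held 0.788% ± 0.305 at E12.5 and 13.4% ± 6.69 at P0, from 8.37% in NPD27 to 23.3% in NPD28, and Anxa8 held 2.63% ± 0.80 and 8.85% ± 3.70. As shares, those of Anxa2 and Anxa6 can decline with no decline of their own abundance. The order depended on the length used. With the longest transcript as length the mean share of Anxa5 was 37.9% at E12.5 and 29.4% at P0 and that of Anxa2 32.7% and 21.9%, but Anxa2 was above Anxa5 in NPD9.2 (36.0% and 32.8%), and in NPD28 both Anxa1 (28.3%) and Anxa2 (22.1%) were above Anxa5 (20.7%). The P0 means of Anxa3, Anxa6 and Anxa8 then ran 8.25%, 7.598% and 6.51%.

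**Figure D3:**
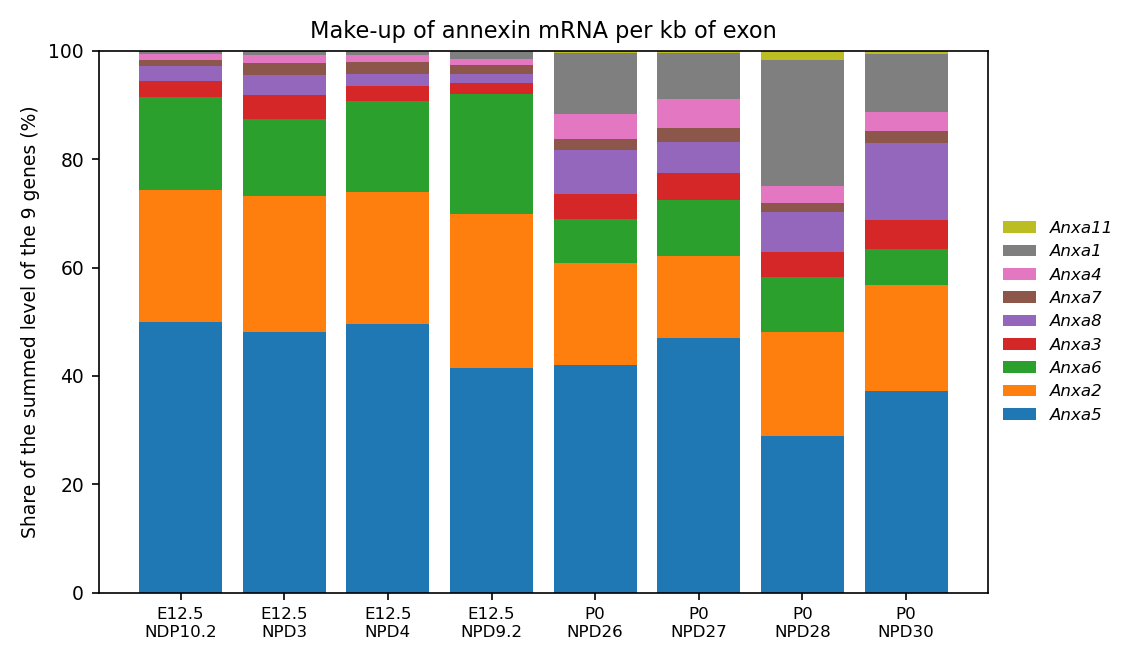
Stacked bars with the share of each annexin in the summed CPM per kb of the 9 genes (vertical axis, percent), 1 bar for each litter. Anxa5 has 28.9% to 49.9% of the total, and Anxa1 goes from at most 1.204% at E12.5 to at least 8.37% at P0.

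Within P0 the members did not vary alike across litters. As deviations of log2 CPM from the P0 mean, NPD28 was the highest litter for Anxa1 (0.83), Anxa11 (1.21) and Anxa6 (0.14), and the lowest for Anxa4 (-0.47), Anxa5 (-0.48) and Anxa7 (-0.33). NPD30 was the highest for Anxa8 (1.04), Anxa3 (0.45), Anxa2 (0.39), Anxa7 (0.34) and Anxa5 (0.25). In the same units, the mean of the neutrophil markers deviated by 1.61 and that of the B cell markers by 2.32 in NPD28, and that of the notochord markers by 0.91 and of the chondrocyte markers by 0.74 in NPD30, where the macrophage markers deviated by -4.74. All 10 neutrophil markers and all 7 macrophage markers were detected at P0. The part of these cell types in the spread of the members was not tested, and 4 litters give no basis for a correlation.

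**Figure D4:**
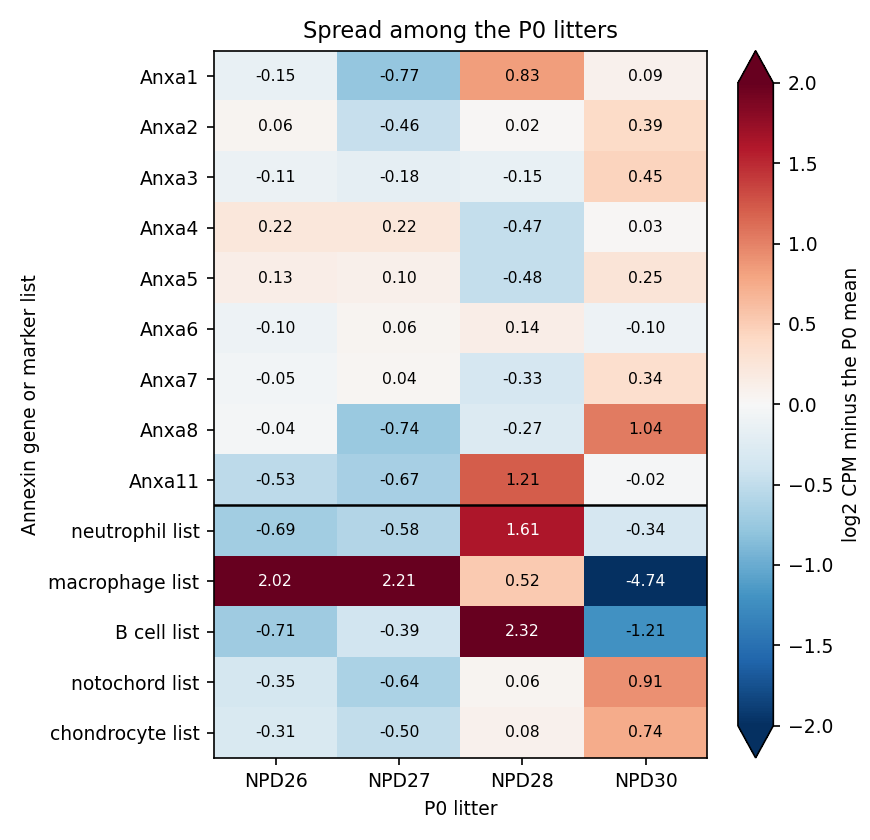
Heat map of the deviation from the P0 mean in log2 CPM, with the 4 P0 litters as columns and the 9 annexins and the means of 5 marker lists as rows. Colors are capped where the scale ends and each cell prints its value. NPD28 is highest for Anxa1, Anxa11 and the neutrophil markers, and NPD30 for Anxa8 and the notochord markers.

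For each member the genes with the most similar profile are given as a description, by Pearson's r of log2 CPM over the 8 litters among 12633 genes, whose stage difference alone can give a high r. Krt19, a notochord keratin, was nearest to Anxa2 (r = 0.992), followed by Gm26633 and Snorc. Calr3, Nek7 and Car3 were nearest to Anxa8 (0.998, 0.997 and 0.995), and Nek7 (0.990) and Car3 (0.985) were also the nearest to Anxa3, followed by Rgs9bp. Anxa1 was nearest to Crybg1 (0.990), Cyp4f13 and Stfa3, the last a stefin that rose from 0.413 to 110 CPM in the mean. Anxa4 was nearest to Trarg1 (0.994), Nucb2 and Vwa5a, and Anxa11 to Stat3 (0.980) and Vps51. For Anxa5 the nearest was Cryz (0.979), then Trmt2b and Vamp3. For Anxa7 it was Nupr1 (0.990), then Snapin and Pon3, and for Anxa6 it was D17Wsu92e (0.980), then Tmem214 and Qars.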

How the data were processed

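RNA-Seq was performed on NDCs of 4 litters at E12.5 and 4 at P0 with 100-base single-end reads. The authors used STAR 2.4.0j for alignment to GRCm38 and htseq-count with the Gencode M4 annotation, and the deposited values are raw counts per gene, without normalization. The strand setting of the counting is not given in the sources used here. Reads not assigned to a gene (not unique, ambiguous or outside genes) were left out of library sizes, and those assigned were 22.6% to 34.8% of all tallied. At E12.5 they were 22.6% in NDP10.2 and 24.6% in NPD9.2, against 32.6% in NPD3 and 33.7% in NPD4. Ambiguous reads were 16.3% and 17.5% in NDP10.2 and NPD9.2, against 11.6% and 10.6% in NPD3 and NPD4.

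Counts were tested with edgeR 4.0.16 in R 4.3.3 (TMM, filterByExpr with a minimum count of 10 and total of 15, robust quasi-likelihood F-test with stage as the only term, Benjamini-Hochberg adjustment over 15467 genes). The study used DESeq2. DESeq2 1.42.0 and limma 3.58.1 (voom), other normalizations and filters, and leaving out litters were alternatives. A prior count of 2 was added before log2 CPM. The procedure was tested on simulated data. Positions and exon lengths are those of Gencode M21 on GRCm38, a later annotation. Named genes are all members, the genes of the lists that passed the test or are annexins or S100 proteins, and the 3 genes most like each member, of which 1 is not reported here. Ahnak, Pdcd6, Sri, Tsc22d3, Fkbp5 and Zbtb16, which did not pass, and markers of cell types are also named, chosen after their values were seen. Members and lists were chosen with earlier results of these data known.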

Additional observations from a re-analysis of the deposited data

Results flagged for a closer look

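A litter stood apart from the other 3 of its stage, by Dixon's test at its 95% critical value, in 2 of 30 values tested, where chance gives about 1 in 20. Anxa3 at P0 was highest in NPD30, at 162.7 CPM, against 105 to 110.4 CPM in the other litters (gap over range 0.908). Anxa7 at E12.5 was highest in NPD3, at 45.86 CPM, against 27.6 to 29.7 CPM in the others (gap over range 0.882).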

How the results depend on the processing

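The count of members called higher was 6 under most alternatives, and none was called lower under any. It was 7, with Anxa5 added, with DESeq2's Wald test (adjusted p = 0.0322), limma-voom (0.0455) and without P0 replicate 3 (NPD28). It was 5 with at least 10 counts in every sample, which removes Anxa11 from the test, and with NDP10.2 and NPD9.2 left out, where Anxa7 was lost. The number of genes called was 4321, but 1054 with NPD30 as the only P0 litter and 2581 with NDP10.2 and NPD9.2 left out, where fewer samples are tested and, for NPD30, the lone litter is assumed to vary like those of E12.5, and it ranged from 3612 to 4529 with each litter left out in turn. Upper quartile normalization moved the median log2 fold change of all genes from 0.04 to -0.11 and turned that of Anxa6 to -0.0818 (adjusted p = 0.833). With each litter left out in turn Anxa6 ranged from -0.10 to 0.15. The P0 minus E12.5 difference in the Anxa1 to S100a11 log2 ratio ranged from 4.17 to 4.49 when a litter was left out, where the smallest p possible is 0.0571. S100a11 passed without a filter on low counts (adjusted p = 0.042). No paired analysis was possible because the labels give the litters of the stages no shared numbers. Depth limits Anxa11 at E12.5, with 26 counts over 4 litters.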
